A study of Mus musculus with 7 samples.

Results

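The genes described here build, shape and maintain mitochondria: the import machinery (all symbols that begin with Timm or Tomm) and 19 named genes of fusion, fission, cristae structure, mitochondrial DNA expression, nuclear regulation and proteolysis. The rule used names, not measured values, but the group was chosen with earlier results of these data known. Counts over it are therefore descriptions. It matched 47 symbols in the mouse gene table, of which 45 had a probe on the array, out of 21154 named genes with a probe. Of these, 43 were measured well above background on all 7 arrays, and none was saturated. The probes of Timm8a2 and Tomm20l did not rise well above background in any heart, and the pseudogene Timm29-ps1 and the long non-coding RNA Tomm6os had no probe.

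RNA from the heart apex of 7 male C57BL/6 mice was hybridised to 1-colour Agilent arrays. The 3 knockout (KO) mice were homozygous for a floxed p38α MAPK gene (Mapk14, exons 2 and 3 between loxP sites) and heterozygous for MerCreMer, a Cre recombinase activated by tamoxifen and driven by the cardiomyocyte α-MHC promoter. The 4 control mice were homozygous for the same floxed gene and carried no Cre. Both groups received hydroxytamoxifen (500 µg per day for 10 days, from 6 weeks of age) and then angiotensin II, a pressor peptide, from osmotic pumps at 1.5 mg/kg per day for 48 hours, and were 3 months old at harvest. Since MerCreMer was present in KO mice only, loss of p38α and presence of Cre cannot be told apart. No group without angiotensin II was analysed here.

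Nearly all mitochondrial proteins are encoded in the nucleus and enter through the TOM complex of the outer membrane, then through TIM23 or TIM22 at the inner membrane. Mitofusins and Opa1 fuse the membranes, Dnm1l and its receptors divide them, and the MICOS and prohibitin assemblies hold the inner membrane in shape. Tfam, Tfb2m, Polrmt, Polg and Twnk transcribe and copy mitochondrial DNA, and Tfb1m methylates the small ribosomal RNA of mitochondria. The nuclear factors Nrf1 and Gabpa act on many nuclear genes for mitochondrial proteins. The heart depends on dense, interconnected mitochondria for its ATP.

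On each array 46.0% to 49.7% of probes were well above background, and all 10 cardiomyocyte markers were detected in every heart. The array signal of Mapk14 itself was 3.74, 3.76 and 3.71 in KO hearts, against 3.52, 3.40, 3.47 and 3.67 in control hearts, on the log2 scale relative to each array's 75th percentile, the scale of every level below. Its difference was 0.22 ± 0.12 (SE, limma adjusted p = 0.202), and whether its probes lie in the deleted exons was not examined, so it does not check the labels. A probe for Esr1, whose ligand-binding part is built into MerCreMer, was well above background in all 3 KO hearts and in 0 of 4 control hearts. It read -0.82, 0.07 and 4.50 in KO hearts 1, 2 and 3, so KO heart 3 stood far above the other KO hearts. This probe was kept only through the KO hearts, and the other Esr1 probes on the array were well above background in none of the hearts. Control heart 2 correlated with the KO hearts almost as closely as with the other control hearts (mean r of 0.979 against 0.982 over all features), whereas the other control hearts had 0.948 to 0.970 with the KO hearts.

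In KO hearts 15 of the 43 measured genes fell and 0 rose, at an adjusted p under 0.05 (limma, Benjamini-Hochberg over all 22344 features tested). The background was 15.0% of features lower and 10.2% higher in KO hearts (15.9% and 12.3% of named genes), and the genes that fell make up 34.9% of those measured. The other 28 did not pass. The KO mean was below the control mean for 36 genes and above it for 7. The median log2 difference was -0.40, against -0.06 over all features. In 25 genes every KO heart lay below every control heart (background 21.4%), and in 0 genes did every KO heart lie above (background 17.6%). In bulk tissue, fewer cells of a type and less RNA per cell cannot be told apart.

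The count of 15 depended on single hearts. It was 0 without KO heart 1 and 0 without KO heart 2 (16 and 21 genes lower at an unadjusted p under 0.05, against 25 with all hearts), and 7 without control heart 4. It was 2 with no filter on dim probes and 27, with 3 genes higher, when arrays were weighted by their quality. The calls over all features moved too, from 3356 lower to 54, 272 and 1513 without those hearts, in that order. They were 975 lower with no filter, and 6639 lower and 5360 higher with array weights. The median of the 43 differences stayed between -0.42 and -0.33 when any single heart was left out.

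**Figure D1:**
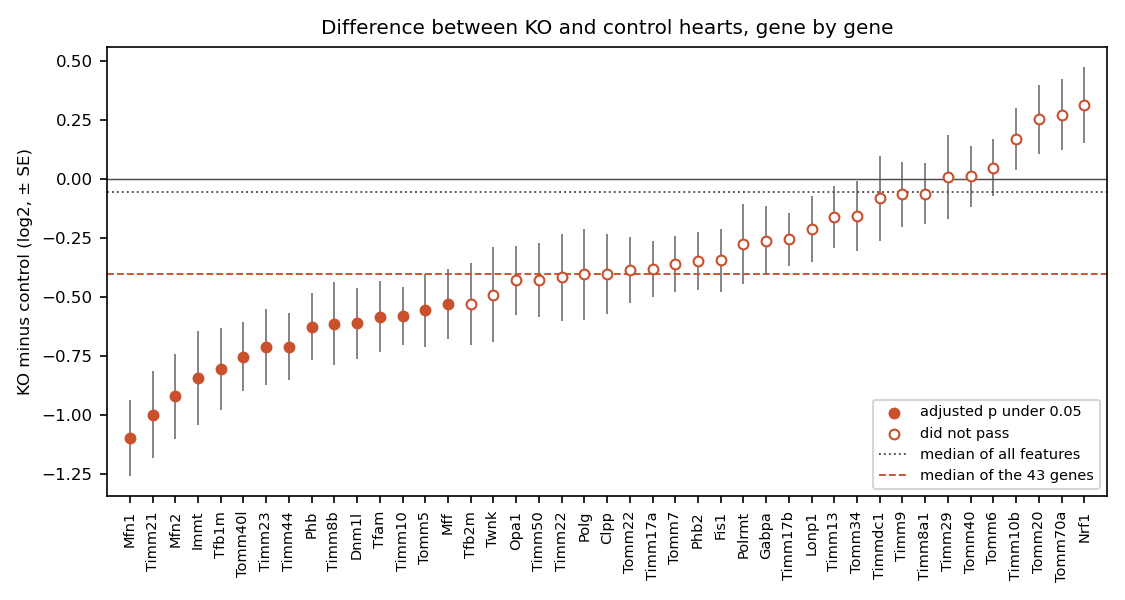
Log2 difference, KO minus control (vertical axis), for each of the 43 genes in order of size; bars are SE of the limma fit, filled points passed at an adjusted p under 0.05, and lines mark the medians of all features and of the 43 genes. The differences run from -1.10 (Mfn1) to 0.31 (Nrf1), and all 15 that passed lie below 0.

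At the outer membrane, 2 of 8 TOM genes fell (25%, against 15.0% of all features), and the median of the 8 was -0.18. Tomm40l, a relative of the import channel Tomm40, was 1.38, 1.42 and 1.48 in KO hearts, against 2.29, 1.95, 2.09 and 2.39 in control hearts. Every KO heart was below every control heart, a difference of -0.75 ± 0.15 (SE, adjusted p = 0.0155) or 1.69-fold. Tomm5, a small subunit of the TOM core, was 5.83, 5.79 and 6.04 in KO hearts, against 6.59, 6.38, 6.19 and 6.61 in control hearts. It fell by 0.56 on the log2 scale (adjusted p = 0.0348), again with no overlap between the groups.

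The import channel and the receptors for incoming proteins did not pass. Tomm40 itself was 4.47, 4.57 and 4.43 in KO hearts, against 4.57, 4.57, 4.28 and 4.50 in control hearts, and the groups overlapped. Its difference was 0.01, with a 95% interval from -0.29 to 0.31, and a second probe gave -0.23 (adjusted p = 0.215 with each probe tested by itself). Tomm20, the receptor for proteins with a presequence, was 4.54, 4.65 and 4.20 in KO hearts, against 4.30, 4.23, 4.15 and 4.16 in control hearts. KO hearts 1 and 2 were above all control hearts and KO heart 3 lay among them (0.25, adjusted p = 0.222). Tomm70a, the receptor for carrier proteins, showed the same order, with 2.79, 2.87 and 2.46 in KO hearts, against 2.55, 2.45, 2.25 and 2.50 in control hearts (0.27, adjusted p = 0.205). Among the other subunits, Tomm22, the central receptor, and Tomm7, a small core subunit, did not overlap between groups but missed the threshold, with differences of -0.39 (adjusted p = 0.0738) and -0.36 (adjusted p = 0.0567). Tomm6, another small subunit, differed by 0.05 (95% interval -0.23 to 0.33).

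In the intermembrane space and at TIM22, which inserts carrier proteins into the inner membrane, 2 of 8 genes fell and the median was -0.11. Timm10, a partner of Timm9 in the chaperone that escorts carriers, was 5.17, 5.14 and 5.15 in KO hearts, against 5.78, 5.56, 5.82 and 5.77 in control hearts. The KO hearts were nearly equal and all lay below the control hearts (-0.58 ± 0.12, SE, adjusted p = 0.0182, 1.50-fold). Timm8b, a small TIM of the Timm8 type, was 5.72, 6.06 and 5.97 in KO hearts, against 6.54, 6.17, 6.67 and 6.73 in control hearts, a difference of -0.61 ± 0.17 (SE, adjusted p = 0.0382). The lowest control heart, heart 2, was only slightly above the highest KO heart.

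Their partners did not pass. Timm9 differed by -0.07 (95% interval -0.38 to 0.25), Timm8a1 by -0.06 (95% interval -0.36 to 0.24) and Timm13 by -0.16 (95% interval -0.47 to 0.14). Timm10b, a small TIM bound to the TIM22 complex, was 5.22, 5.13 and 5.12 in KO hearts, against 5.02, 5.16, 4.80 and 4.98 in control hearts, so only control heart 2 reached into the KO range (0.17, adjusted p = 0.361). Timm22, the insertion channel, differed by -0.42 (adjusted p = 0.12) with overlapping groups, and Timm29, a TIM22 subunit described in human cells, by 0.01 (95% interval -0.41 to 0.42).

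Of TIM23, the inner membrane translocase for presequence proteins, and its motor, 3 of 6 genes fell (50%, against 15.0% of all features). All 6 were lower in every KO heart than in any control heart (background 21.4% of features). Timm21, which links TIM23 to the outer membrane translocase, was 0.64, 0.54 and 1.14 in KO hearts, against 1.92, 1.56, 1.70 and 1.92 in control hearts. It was 2.00-fold lower in KO hearts (SE of 0.18 on the log2 scale, adjusted p = 0.0147), with KO heart 3 nearest to the control hearts. The channel subunit Timm23 was 5.53, 5.58 and 5.61 in KO hearts, against 6.33, 5.95, 6.32 and 6.55 in control hearts. The KO hearts lay close together and control heart 2 was the lowest control (-0.71 ± 0.16, SE, adjusted p = 0.0211).

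Timm44, which anchors the Hsp70 motor at the channel, was 3.77, 3.64 and 3.96 in KO hearts, against 4.65, 4.43, 4.35 and 4.57 in control hearts, a difference of -0.71 ± 0.14 (SE, adjusted p = 0.0163). The other subunits were the presequence receptor Timm50 (-0.43, adjusted p = 0.0778) and the alternative subunits Timm17a (-0.38, adjusted p = 0.051) and Timm17b (-0.26, adjusted p = 0.12). A second, dimmer Timm17a probe gave -0.55 (adjusted p = 0.0202 with each probe tested by itself), so the call for Timm17a depends on the probe. The median of the 6 was -0.57.

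**Figure D2:**
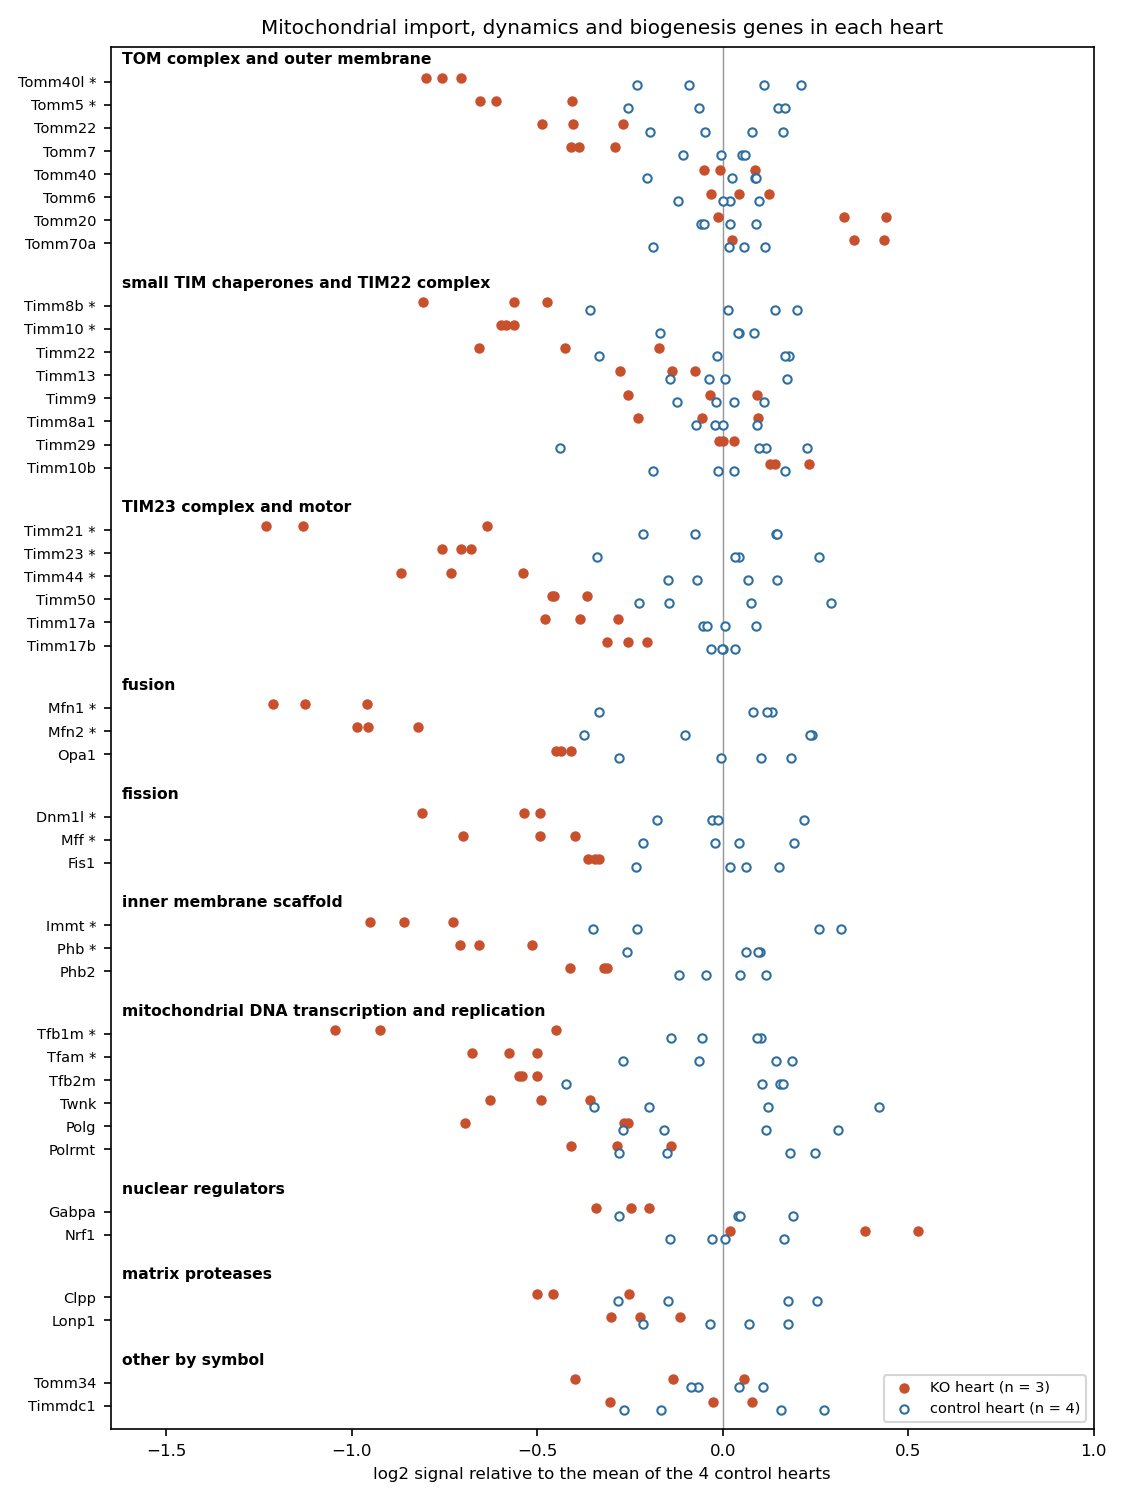
Log2 signal of each of the 43 genes in each heart relative to the mean of the 4 control hearts (horizontal axis), by role, with 3 KO hearts as filled points above 4 control hearts as open points; an asterisk marks the 15 genes that passed. In the 15 genes no KO heart reached a control heart, while Tomm20, Tomm70a and Nrf1 had 2 KO hearts to the right of all control hearts.

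Of the fusion genes, 2 of 3 fell (66.7%, against 15.0% of all features), and the 3 had the most negative median of any role (-0.92). Mfn1, a GTPase that fuses outer membranes, was 4.07, 3.99 and 4.24 in KO hearts, against 5.28, 4.87, 5.33 and 5.32 in control hearts. This was the largest difference of the 43 genes, -1.10 ± 0.16 (SE, adjusted p = 0.0123), or 2.14-fold. Mfn2, its paralogue, was 4.64, 4.81 and 4.67 in KO hearts, against 5.53, 5.25, 5.87 and 5.86 in control hearts (-0.92 ± 0.18, SE, adjusted p = 0.016, 1.89-fold). For both mitofusins the KO hearts lay well apart from the control hearts, and control heart 2 was the nearest control.

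Opa1, the GTPase that fuses inner membranes, was 2.90, 2.92 and 2.95 in KO hearts, against 3.35, 3.07, 3.54 and 3.46 in control hearts. The groups did not overlap, and the difference of -0.43 ± 0.15 missed the threshold (SE, adjusted p = 0.0626). A second, dimmer Opa1 probe gave -1.08 (adjusted p = 0.0154 with each probe tested by itself), so the call for Opa1 depends on the probe.

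Of the 3 fission genes, 2 fell (66.7%, against 15.0% of all features). Dnm1l, the dynamin that constricts mitochondria, was 2.78, 3.05 and 3.10 in KO hearts, against 3.81, 3.56, 3.41 and 3.58 in control hearts, a difference of -0.61 ± 0.15 (SE, adjusted p = 0.0252). Mff, its main receptor on the outer membrane, was 3.96, 4.17 and 4.26 in KO hearts, against 4.64, 4.44, 4.70 and 4.85 in control hearts (-0.53 ± 0.15, SE, adjusted p = 0.0364). Neither gene overlapped between groups. Fis1, an outer membrane adaptor of fission, was 5.40, 5.42 and 5.43 in KO hearts, against 5.79, 5.53, 5.92 and 5.83 in control hearts, and missed the threshold (-0.35, adjusted p = 0.0908). Its second, dimmer probe pointed the other way (0.37, adjusted p = 0.117), so no direction is given for Fis1.

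Among the inner membrane scaffolds, 2 of 3 fell (66.7%, against 15.0% of all features). Immt (mitofilin), the core of the MICOS complex at cristae junctions, was 4.48, 4.58 and 4.71 in KO hearts, against 5.20, 5.08, 5.69 and 5.75 in control hearts. The control hearts fell into a lower pair (1 and 2) and a higher pair (3 and 4), all above the KO hearts (-0.84 ± 0.20, SE, adjusted p = 0.0229, 1.80-fold). Prohibitin (Phb) was 5.07, 5.26 and 5.12 in KO hearts, against 5.88, 5.52, 5.84 and 5.87 in control hearts (-0.63 ± 0.14, SE, adjusted p = 0.0212). Its ring partner Phb2 differed by -0.35 (adjusted p = 0.0691), and by -0.43 on a second probe (adjusted p = 0.0447 with each probe tested by itself).

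For mitochondrial DNA and its expression, 2 of 6 genes fell (33.3%, against 15.0% of all features). All 6 differences were negative (54.1% of all features were), with a median of -0.51. Tfam, which packages mitochondrial DNA and opens its promoters, was 2.24, 2.41 and 2.34 in KO hearts, against 3.06, 2.65, 2.85 and 3.10 in control hearts. The groups did not overlap (-0.58 ± 0.15, SE, adjusted p = 0.0295, 1.50-fold). Tfb1m, a methyltransferase of the small ribosomal RNA, was 1.06, 0.94 and 1.53 in KO hearts, against 2.08, 1.93, 1.84 and 2.08 in control hearts. KO heart 3 was the KO heart nearest to the control hearts (-0.81 ± 0.17, SE, adjusted p = 0.0188, 1.75-fold).

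Tfb2m, the transcription initiation partner of Polrmt, was 2.35, 2.32 and 2.31 in KO hearts, against 3.01, 2.43, 2.96 and 3.02 in control hearts. Control heart 2 lay just above the KO hearts and far below the other control hearts, and the difference of -0.53 missed the threshold (adjusted p = 0.0566). The replicative helicase Twnk differed by -0.49 (adjusted p = 0.103), without overlap. The DNA polymerase Polg (-0.41, adjusted p = 0.144) and the RNA polymerase Polrmt (-0.28, adjusted p = 0.246) overlapped between groups.

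Neither nuclear regulator passed. Nrf1 was 0.82, 0.67 and 0.31 in KO hearts, against 0.45, 0.26, 0.29 and 0.15 in control hearts, with KO heart 3 inside the control range (0.31, 95% interval -0.06 to 0.68, adjusted p = 0.175). One of its other probes gave -0.11. Gabpa, the DNA-binding subunit of GABP, was 0.36, 0.45 and 0.50 in KO hearts, against 0.89, 0.42, 0.74 and 0.75 in control hearts (-0.26, adjusted p = 0.206). Control heart 2 lay among the KO hearts.

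Promoter sequences were searched for the motifs these regulators bind, since 15 genes of the group moved the same way. RefSeq promoters (GRCm38.p6, 250 bases before to 50 after each start) were available for 40 of the 43 genes. The ETS core bound by GABP-type factors was searched as CCGGAAG and, on the other strand, CTTCCGG, and the Nrf1 motif as GCGCA, any base and GCGC, or on the other strand GCGC, any base and TGCGC. No match of one overlapped a match of the other. The ETS core was in 8.86% of all 32851 promoters of that length and in the promoters of 18.2% of the named genes tested with one. It was in those of 20 of the 40 genes here (50%). It was about equally frequent in genes that fell (7 of 13, 53.8%) and genes that did not pass (13 of 27, 48.1%), with no test made. The Nrf1 motif was in 4.60% of all promoters and in those of 10.3% of the named genes tested. It was in 6 of the 40 genes here (15%), 3 of 13 that fell (23.1%) and 3 of 27 that did not pass (11.1%). No test was made.

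The windows below show ETS cores (capitals) upstream of the start in the 6 genes that fell whose match lies there, 5′ to 3′ on the gene's strand, each cut at the start site where it reaches it.
Mfn1 (chr3:32529418-32529464, plus strand): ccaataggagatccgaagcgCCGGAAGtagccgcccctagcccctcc
Immt (chr6:71831181-71831227, plus strand): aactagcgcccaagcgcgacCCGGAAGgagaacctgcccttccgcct
Timm23 (chr14:32201912-32201958, minus strand): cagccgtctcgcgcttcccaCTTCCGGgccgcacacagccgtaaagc
Timm10 (chr2:84826985-84827020, plus strand): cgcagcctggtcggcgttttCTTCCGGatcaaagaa
Timm8b (chr9:50603869-50603900, plus strand): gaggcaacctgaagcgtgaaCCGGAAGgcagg
Tfam (chr10:71238065-71238111, minus strand): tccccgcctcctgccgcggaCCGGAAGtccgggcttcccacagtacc

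The same core stood upstream of genes that did not pass, shown for contrast. In Tomm22 matches on both strands overlap.
Tomm70a (chr16:57121614-57121660, plus strand): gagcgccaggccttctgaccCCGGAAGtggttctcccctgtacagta
Tomm22 (chr15:79670801-79670850, plus strand): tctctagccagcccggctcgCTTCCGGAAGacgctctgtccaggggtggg
Phb2 (chr6:124712196-124712242, plus strand): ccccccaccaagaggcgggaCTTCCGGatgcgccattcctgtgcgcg

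The Nrf1 motif (capitals) is shown for Tomm20, whose KO mean was above the control mean, and Opa1, whose KO mean was below it. Neither gene passed.
Tomm20 (chr8:126945922-126945961, minus strand): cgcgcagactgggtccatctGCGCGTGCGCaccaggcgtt
Opa1 (chr16:29579255-29579304, plus strand): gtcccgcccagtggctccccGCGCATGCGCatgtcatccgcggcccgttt
A match describes letters in these windows and not binding.

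The matrix proteases did not pass. Clpp, the peptidase of the ClpXP complex, differed by -0.40 (adjusted p = 0.111) and Lonp1, the main soluble protease of the matrix, by -0.21 (95% interval -0.53 to 0.11). Also matched by symbol were Tomm34, a cytosolic co-chaperone (-0.16, adjusted p = 0.435), and Timmdc1, an assembly factor of complex I (-0.08, adjusted p = 0.746).

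Several kept probes measured 21 of the 43 genes. In 16 of the 21 all probes lay on the same side of 0, and in 5 they lay on both. Tested probe by probe, 26 of 67 kept probes fell and 0 rose, against a background of 15.1% lower and 10.4% higher.

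Paralogue pairs show whether closely related genes changed unequally. For each heart the log2 ratio of the first gene to the second was taken, and its difference, KO minus control, was given a two-sided exact permutation p over 35 splits of the hearts, adjusted over 7 pairs. No pair passed after adjustment. For Tomm40 over Tomm40l the ratio was 3.09, 3.14 and 2.95 in KO hearts, against 2.28, 2.62, 2.19 and 2.11 in control hearts, without overlap. The difference was 0.76 (exact p = 0.0286, the smallest this design allows, adjusted p = 0.133). For Timm10 over Timm10b it was -0.05, 0.01 and 0.03 in KO hearts, against 0.76, 0.41, 1.02 and 0.80 in control hearts, also without overlap (-0.75, exact p = 0.0571, adjusted p = 0.133). Each ratio used the kept probe of highest mean for each gene. Second probes of Timm10b (-0.15) and Tomm40 (-0.23) differed in sign from those used (0.17 and 0.01), and ratios with them were not taken.

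The ratio of Phb to Phb2 was 0.19, 0.39 and 0.34 in KO hearts, against 0.64, 0.45, 0.69 and 0.56 in control hearts (-0.28, exact p = 0.0571, adjusted p = 0.133). Timm8a1 over Timm8b differed by 0.55 (exact p = 0.0857, adjusted p = 0.15), with one KO heart just below the highest control heart. The ratios of Timm17a to Timm17b (-0.13, exact p = 0.143), Mfn1 to Mfn2 (-0.18, exact p = 0.229) and Tfb1m to Tfb2m (-0.28, exact p = 0.229) overlapped between groups.

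**Figure D3:**
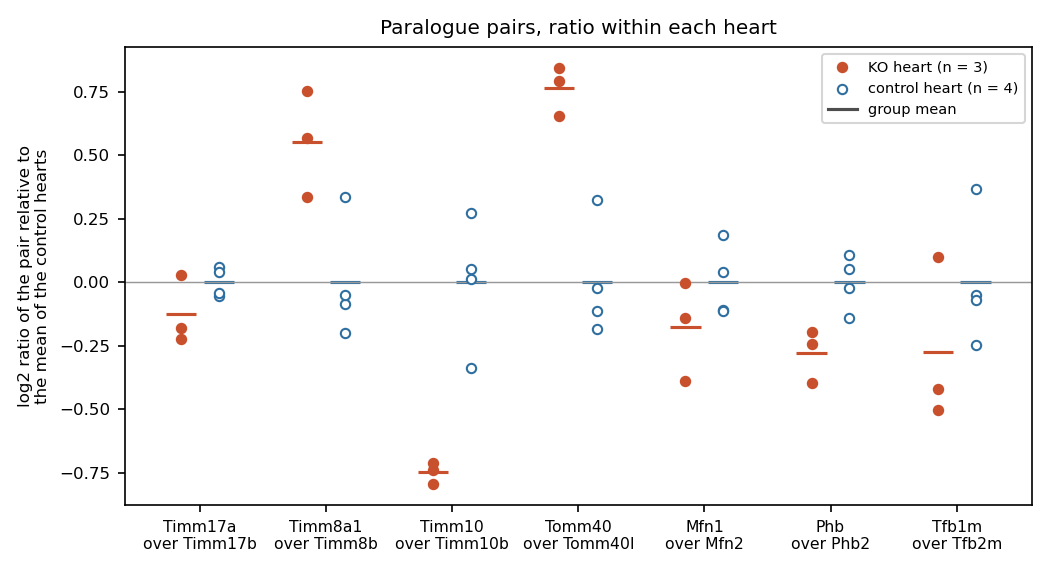
Log2 ratio of the first to the second paralogue in each heart, relative to the mean of the control hearts (vertical axis), with KO hearts (filled) left of control hearts (open) and short lines at group means. KO hearts lie above all control hearts for Tomm40 over Tomm40l and below them for Timm10 over Timm10b and Phb over Phb2. Each gene is read from its kept probe of highest mean only.

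Single hearts had a regular order. Control heart 2 was the lowest control in 24 of the 43 genes and in 11 of the 15 that fell, and control heart 3 was the lowest in the other 4. KO heart 3 was the highest KO heart in 22 of the 43 and in 10 of the 15. Summed linear signal of the 43 genes was 845 to 875 in KO hearts, against 1040 to 1262 in control hearts, in units of each array's 75th percentile.

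Other genes of the same processes, from lists that hold none of the 43, were lower too: 39 of 86 measured fell and 2 rose, with a median of -0.43. The share that fell was 45.3%, against a background of 15.0% of features lower and 10.2% higher. The count that fell was 0 without KO heart 1, 2 without KO heart 2, and 20, 23 and 16 without control hearts 1, 3 and 4. Over all features 54, 272, 2122, 1846 and 1513 were lower in the same runs, in that order. The count of further genes that rose was 0 without any of these hearts.

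Of 23 further import and folding genes, 11 fell (47.8%) and 0 rose. Those with the lowest p were Dnajc15, a J-protein of the import motor (-0.99, adjusted p = 0.0137), the inner membrane insertase Oxa1l (-0.80, adjusted p = 0.0138), the peptidase subunit Immp1l (-0.93, adjusted p = 0.0155) and the outer membrane sorting factor Mtx2 (-0.75, adjusted p = 0.0222). The chaperonin genes Hspd1 and Hspe1, chosen for mention after their values were seen, differed by -0.08 and -0.07 and did not pass.

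Among 26 measured genes of dynamics, cristae and transport, 15 fell (57.7%) and 0 rose. Mtfp1, an inner membrane protein that promotes fission, was 4.23, 4.17 and 5.30 in KO hearts, against 6.86, 6.47, 6.53 and 6.94 in control hearts (-2.13 ± 0.29, SE, adjusted p = 0.0118). KO heart 3 was above the other KO hearts and below all control hearts. Miga2, which promotes fusion (-1.25, adjusted p = 0.0103), the transport GTPase Rhot2 (-1.22, adjusted p = 0.0126) and the MICOS subunit Chchd3 (-1.16, adjusted p = 0.0126) fell without overlap.

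Of 24 measured genes for mitochondrial DNA and RNA, 8 fell (33.3%) and 1 rose. Mterf2, of the mitochondrial termination factor family, was 0.56, 0.57 and 1.77 in KO hearts, against 2.91, 2.68, 2.75 and 3.11 in control hearts (-1.90 ± 0.30, SE, adjusted p = 0.0124). Tefm, the elongation factor of mitochondrial transcription (-0.75, adjusted p = 0.0206), the RNA helicase Supv3l1 (-0.70, adjusted p = 0.0207) and Lrpprc, which stabilises mitochondrial mRNA (-0.86, adjusted p = 0.0229), also fell. The 1 gene that rose, named after its value was seen, was Rnaseh1, which removes RNA from RNA-DNA hybrids (0.69, adjusted p = 0.0298). Of 6 other proteases 1 fell (16.7%, near the background of 15.0%). It was Clpx, the unfoldase partner of Clpp (-0.80, adjusted p = 0.0192).

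Among 7 other regulators of biogenesis, 4 fell (57.1%) and 1 rose. Ppargc1a (PGC-1α), the coactivator that drives mitochondrial biogenesis, was 2.04, 2.57 and 3.48 in KO hearts, against 4.87, 3.97, 4.82 and 4.60 in control hearts. It fell by 1.87 on the log2 scale (adjusted p = 0.0154), with KO heart 3 and control heart 2 nearest to the other group. Perm1, a muscle regulator downstream of PGC-1 and ERR factors, was 2.09, 2.38 and 3.66 in KO hearts, against 5.17, 4.81, 5.46 and 5.44 in control hearts (-2.51 ± 0.37, SE, adjusted p = 0.0123). The nuclear receptor Esrra (-0.84, adjusted p = 0.0143) and the coactivator Ppargc1b (-1.10, adjusted p = 0.016) fell. Pprc1, another PGC-1 family coactivator, named after its value was seen, rose by 0.91 (adjusted p = 0.0303).

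Some cell type markers moved with the groups. Of 10 cardiomyocyte markers 6 fell (60%, background 15.0%) and 0 rose (median -0.67). Their summed linear signal was 3148 to 3679 in KO hearts, against 3912 to 5807 in control hearts. Of 8 measured neutrophil markers 7 had a passing difference above 0. Mmp9, Cxcr2 and Mmp8 were well above background in 0 of 4 control hearts and Fpr1 and Fpr2 in 2 of 4, so these 5 were kept only through the KO hearts and their count supports nothing. S100a8 and S100a9, detected in all hearts, rose by 3.33 and 3.14 on the log2 scale (adjusted p = 0.0187 and 0.0195). S100a8 was 2.24, 2.78 and -0.49 in KO hearts, against -2.13 to -1.24 in control hearts. S100a9 was 4.16, 4.54 and 1.42 in KO hearts, against 0.00 to 0.77 in control hearts. In both, KO heart 3 lay far below the other KO hearts and above all control hearts. The summed signal of the 8 neutrophil markers was 102 to 178 in KO hearts, against 114 to 177 in control hearts, most of it from Csf3r, the neutrophil marker that did not pass (-0.23, adjusted p = 0.442). Of 9 monocyte and macrophage markers 4 rose (background 10.2% of features higher). Their summed signal was 70.7 to 128 in KO hearts, against 44.2 to 74.3 in control hearts, so the groups overlapped by this sum. Of 8 fibroblast markers 2 fell (25%, background 15.0%) and 1 rose (background 10.2%), with overlapping list means. By count, the endothelial (1 of 7 fell, 14.3%) and the smooth muscle and pericyte markers (1 of 6 fell, 16.7%) were near the background of 15.0%. All 7 endothelial differences were below 0 (54.1% of all features were), with a median of -0.49. The endothelial list means, relative to each gene's mean over all hearts, were -0.33 to -0.24 in KO hearts, against -0.09 to 0.62 in control hearts. The smooth muscle and pericyte list means overlapped. The part of these markers in the lower signal of the mitochondrial genes was not tested.

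**Figure D4:**
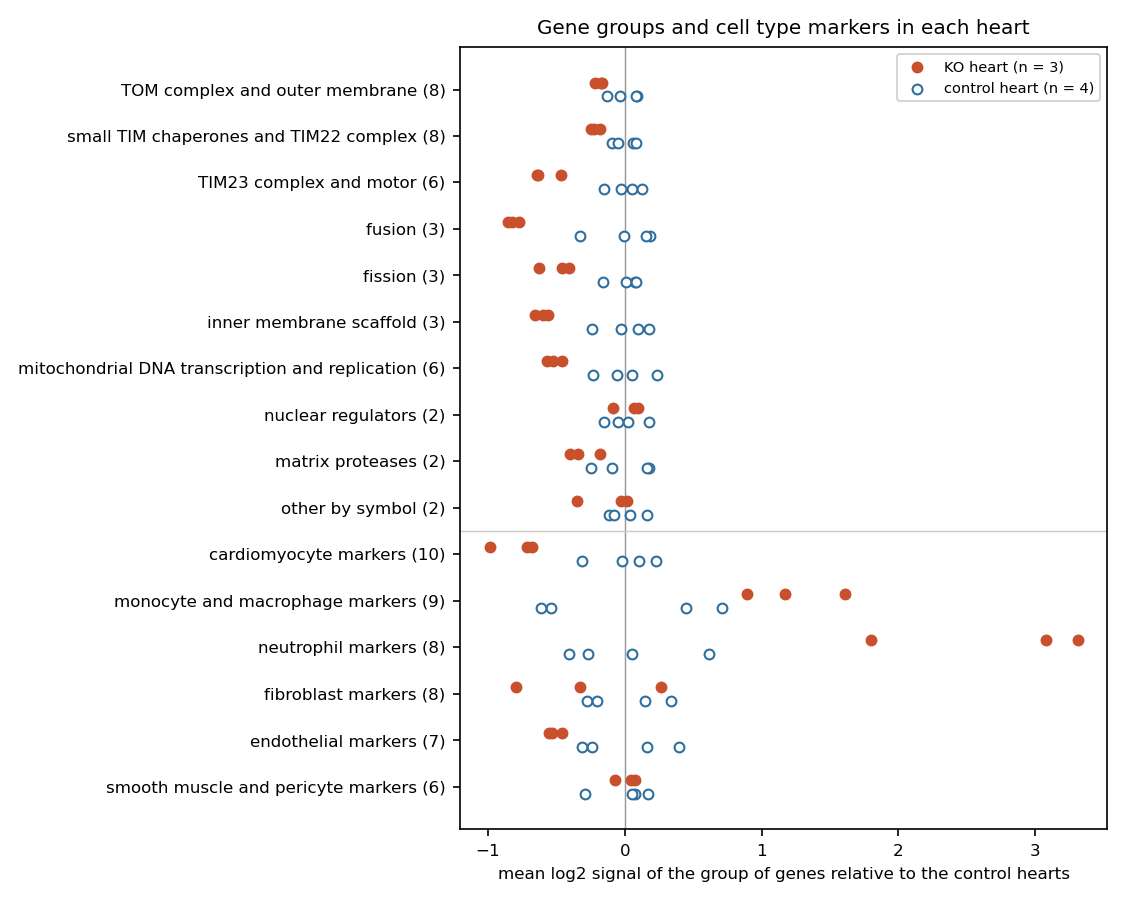
Mean log2 signal of each of the 10 role groups and 6 marker lists in each heart, relative to the control hearts (horizontal axis), with KO hearts (filled) above control hearts (open) and the number of genes in brackets. KO hearts lie left of all control hearts in 7 role groups and overlap them in the nuclear regulators, the matrix proteases and the genes matched by symbol alone, while among the marker lists the fibroblast and the smooth muscle and pericyte lists overlap.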

How the data were processed

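RNA of 7 hearts (100 ng per labelling reaction, per the labels' protocols) was hybridised to 1 array each. The labels name separate hearts, taken as separate animals; the design text speaks of 4 KO hearts, and 1 was not analysed here. The authors read the scans with Feature Extraction 11.0.1.1, per the file headers, and the deposited intensity used is the background-subtracted processed signal. The authors' deposited value table holds log2 values centred on each probe's median over the arrays. Against the scanner values its columns had r of 0.984 to 0.997 and slopes of 0.967 to 1.01, so higher means more signal; how arrays were scaled stays unknown. Its column medians were 0 for 5 arrays, -0.00210 for KO heart 2 and 0.00793 for control heart 4.

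Levels are log2 intensities less the 75th percentile of the array's non-control spots. A probe was kept where 3 or more arrays of either group had it well above background (26576 of 55681), and was named through their RefSeq accession (28026 matched 1 symbol, 27655 none). The kept probe with the highest mean stood for each gene, which left 22344 features, 13697 of them named genes. The test was limma's moderated fit (version 3.58.1, R 4.3.3) of KO minus control, at a threshold of 0.05 after Benjamini-Hochberg adjustment across the whole table. The number of arrays limits the precision, and p-values measure only the spread between these hearts. Every member of the group was named, with up to 4 genes of lowest p from each further list. Members and lists were chosen with earlier results of these data known, so counts over them are descriptions. The limma step was tested on simulated data. Alternatives were normexp (offset 50, on median spot signals), quantile normalization, median centring, no filter or a filter on all arrays, the authors' table, probe means, a trended robust variance, array weights, a block by slide row or by replicate number, leaving out single hearts, a threshold of 0.1 and, added after seeing the data, each probe by itself.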

Additional observations from a re-analysis of the deposited data

Results flagged for a closer look

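Control heart 2 stood apart from the other control hearts in 3 of the 43 genes by Dixon's test. Chance flags about 1 in 20 groups, so a few of the 43 would be flagged by chance. Its level was 4.87 for Mfn1 (next control heart 5.28), 5.52 for Phb (next 5.84) and 2.43 for Tfb2m (next 2.96). In each the heart lay on the side of the KO hearts.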

How the results depend on the processing

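All 15 genes that fell kept their direction in every alternative run. The count of genes lower in KO hearts was 11 to 21 with normexp, quantile normalization, median centring, the filter on all arrays, the authors' table, probe means, a trended robust variance and a slide row block, against 15 reported. It was 2 without a filter on dim probes (more features were then tested), 27 with array weights (and 3 higher) and 23 at the threshold of 0.1. With hearts left out in turn it ranged from 0 to 20. Over all features the number lower ranged from 54 to 4154 with hearts left out. It was 975 without the filter and 6639 with array weights. For the further mitochondrial genes, 39 lower and 2 higher, the counts were 25 lower with median centring, 11 lower and 0 higher without the filter, 7 higher with array weights, and 0 to 43 lower and 0 to 2 higher with hearts left out. The median of the 43 differences was -0.31 with median centring, which moved the median of all features to 0.03, and -0.42 to -0.33 with hearts left out.

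Same-numbered hearts did not clearly deviate together (r of 0.18, -0.22 and -0.20). Differently numbered hearts had r of -0.32 to 0.39, so so few values cannot decide whether the numbers pair the hearts. With replicate number as a block 0 of the 43 genes and 0 of the further genes passed in either direction (14 of the 43 lower at an unadjusted p under 0.05). Over all features 3 were then lower and 6 higher.

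Some genes that did not pass changed sign. These were Timm29 with normexp (-0.0274), array weights (-0.0185) and slide row as a block (-0.0261), and Timm8a1 (0.0281), Timm9 (0.0249) and Timmdc1 (0.00799) with median centring. Fis1 (0.0125) and Tomm40 (-0.109) turned with probe means, Timmdc1 (0.0112), Tomm34 (0.0187) and Tomm40 (-0.0344) with array weights, and Timmdc1 (0.00810) with the replicate block. With 1 heart left out, values spanned 0 for Timm9 (-0.146 to 0.0287), Timmdc1 (-0.172 to 0.0269), Tomm40 (-0.0586 to 0.0394), Timm29 (-0.140 to 0.0825) and Timm8a1 (-0.142 to 0.0191). Single probes gave opposite signs for Timm10b (-0.15), Timm8a1 (0.0360), Tomm40 (-0.23), Fis1 (0.37) and Nrf1 (-0.11). The cause of these changes was not tested.

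No paralogue pair changed direction. With a heart left out the smallest exact p possible is 0.0667 or 0.1, so those repeats say nothing about the calls.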
